A study of Mus musculus with 8 samples.

Results

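The genes described here are known for their activity in lymphocyte precursors: Rag1, Rag2, Dntt, Vpreb1, Vpreb3, Igll1 and Ptcra. These 7 genes, of 21624 protein-coding genes tested, were chosen by name, and each was taken as its gene body in the GENCODE M21 annotation (build GRCm38) with 10 kb to either side. Together the loci held 2076 of the 18714703 CpGs that reached 5 reads or more in each of the 4 files. The question was which methylation remained at them in mature B cells and in mature T cells.

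The proteins of Rag1 and Rag2 form the recombinase that cuts antigen receptor genes, and Dntt encodes TdT, the polymerase that adds nucleotides where the cut ends are joined. Vpreb1 and Igll1 (λ5) encode the surrogate light chain, which pairs with the new heavy chain in pre-B cells. Vpreb3 encodes a related B lineage protein whose transcript is also found beyond the pre-B stage. Ptcra encodes pre-Tα, the partner of the T cell receptor β chain in thymocytes. Methylation of CpG pairs is generally low at active gene starts and enhancers and high over most of the genome.

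DNA of spleen lymphocytes from C57BL/6J mice, 6 to 8 weeks old, was analyzed by whole-genome bisulfite sequencing (WGBS). The 8 samples fell into 4 groups of 2: resting CD43- B cells of females and of males, and naive CD4+CD62L+ T cells (sorted as CD44lo and CD25-) of females and of males. No treatment or altered genotype was given for any group, and the cells were pooled from several animals. Both samples of a group shared 1 file, and the labels do not say whether it merges them or holds 1 of them, so each group had 1 measurement, the spread between pools of the same kind was not measured, and the other sex was the only repeat of a cell type. A permutation of 2 B against 2 T files cannot go below an exact two-sided p of 0.333. WGBS reads 5-methylcytosine and 5-hydroxymethylcytosine alike, and in a cell population a level between the extremes does not tell a share of cells from a share of alleles.

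Mean depth per autosomal CpG was 14.6 to 17.7 reads over the files, and autosomal methylation was 79.5% to 80.7%. Within the loci described here, mean depth was 14.7 to 19.4 reads per CpG, and 93.5% to 96.9% of the reference CpGs of each locus were measured. Promoter methylation followed the labels of the cells: 6 of 8 B cell markers were called lower in B cells (Ms4a1 with a mean B minus T of -80.6 points and Cd79a of -67.6) and 7 of 8 T cell markers were called higher in B cells (Cd3d with 88.3 points and Cd3e with 82.3). Of markers of other cells, 0 of 5 myeloid, 0 of 3 NK and 0 of 2 plasma cell promoters were called, with 1, 0 and 0 at an unadjusted p under 0.05 and 0 called by limma or Fisher's exact test. The myeloid one was Lyz2, a lysozyme gene of macrophages and granulocytes, which stood at 41.5% and 50.7% in female and male B cells and at 64.1% and 66.7% in T cells (-19.3 points, adjusted p = 0.0121). Its part in the results was not tested. Over all promoters 1.59% were called, so 0 of so few markers says little about purity. Other cells present in both sorts would not show in a comparison of B with T cells. Both CD8 promoters were called higher in B cells. Cd8b1 stood at 90.0% and 89.7% in female and male B cells and at 40.6% and 38.5% in female and male T cells, and Cd8a differed by 20.9 points.

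Differences were taken as B minus T cells within each sex and averaged. Every window or promoter of the genome was fitted by logistic regression on its methylated and unmethylated reads, with terms for the cell and the sex, a dispersion moderated by limma, and Benjamini-Hochberg adjustment. To be called, it needed a mean difference of at least 20 percentage points as well as an adjusted p below 0.05. For whole loci, which average many CpGs, a mean difference of at least 10 points was asked for.

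The called windows were lower in B cells at the surrogate light chain genes and Vpreb3 and higher at Ptcra, while those of Rag1, Rag2 and Dntt went in either direction. Of 176 windows of 1 kb in the loci, 24 were called (13.6%), against 2.08% of 2018320 windows genome-wide. The genome-wide share covers windows far from genes as well, and the genes were chosen with earlier results of these data known. Lower in B cells were 17 windows (9.66%, against 0.913% genome-wide) and higher were 7 (3.98%, against 1.16%). In all 24 the sign was shared by females and males. The call asks for a mean of both sexes of 20 points or more, which favors a shared sign. How often called windows genome-wide share the sign was not counted. The lower windows lay in the Vpreb1 and Igll1 loci, which overlap and share 14 windows (6 of 19 and 7 of 21 windows called, of which 6 are the same windows), in the Vpreb3 locus (6 of 27), and in the Rag1 (3 of 31), Rag2 (1 of 29) and Dntt (1 of 49) loci. The Ptcra locus had 5 of 29 windows called, each higher in B cells, and the other 2 higher windows lay between Rag1 and Rag2 and in Dntt. The Rag1 and Rag2 loci share 15 windows, among them 2 called ones. Because 4 called windows lay within 1 kb of the start of a gene outside the group, the count was repeated without such windows, an alternative added after seeing the data, and was then 20 of 147. The same exclusion was not made genome-wide.

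**Figure D1:**
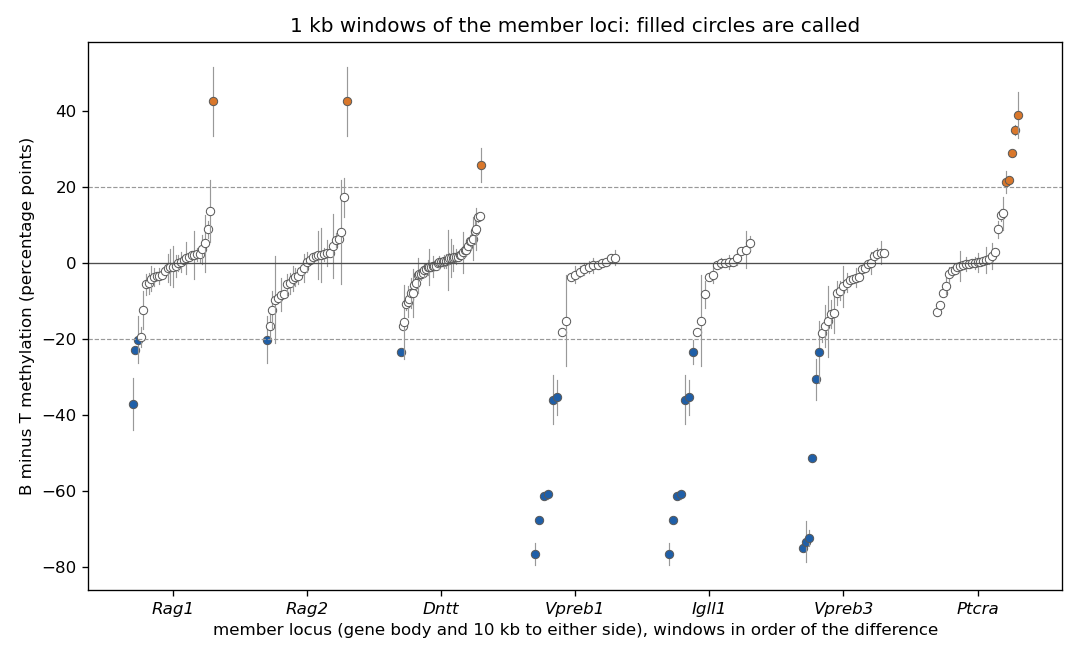
Mean B minus T methylation difference in percentage points of each 1 kb window (circles), in rising order within each locus; vertical grey lines join the female and the male value, filled circles are called windows, dashed lines mark 20 points, and windows shared by neighboring loci are drawn in both. The called windows of Vpreb1, Igll1 and Vpreb3 all lie below zero and those of Ptcra all lie above it.

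Igll1 (chr16:16860671-16863985, minus strand) encodes λ5. Within 1 kb of its start, methylation was 15.7% in female B cells (95% Wilson interval 11.6% to 21%) and 17.4% in male B cells (13.5% to 22.2%). In T cells the same 17 CpGs stood at 85.0% in females (80.3% to 88.7%) and 87.2% in males (82.9% to 90.5%). The B and T values did not overlap, which by itself means little with 2 files of each cell type. The mean difference was -69.5 points (adjusted p = 6.7e-07), and Igll1 was the 1 gene of the 7 whose promoter was called at GENCODE starts, against 1.59% of 51815 promoters in either direction, 0.623% lower and 0.965% higher in B cells.

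The B cell level was lowest beside the start. Within 250 bases of it, female B cells had 0 methylated of 50 reads, which allows up to 6% (counting error only), and male B cells stood at 2.04%, while female and male T cells stood at 73.2% and 84.3%. All 17 CpGs within 1 kb were lower in B than in T cells in both sexes. Of these CpGs, 10 were at or under 20% in B cells and 13 at or over 80% in T cells. The difference extended into the gene, whose body stood at 48.3% and 54.7% in female and male B cells and at 96.9% and 95.4% in female and male T cells. The window across the start and a coding exon (chr16:16863001-16864000) had the widest gap of the locus, with 18.3% and 22.3% in B cells where T cells had 97.7% and 96.0% (-76.6 points, adjusted p = 5.45e-64). The windows next to it, chr16:16862001-16863000 and chr16:16864001-16865000, differed by -60.9 and -61.2 points, and a window downstream of the gene (chr16:16857001-16858000) by -23.5 points. The last of these fell to -17.0 points without the female B cell file and was then not called.

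The bases before the starts of Igll1, Vpreb1 and Vpreb3 are shown because they were nearly free of methylation in B cells and not in T cells. They are the 250 bases upstream of the RefSeq starts (GRCm38.p6), read 5′ to 3′ on the strand of the gene, with the measured CpGs in capitals. Igll1 is chr16:16863986-16864235 (minus strand), Vpreb1 is chr16:16869256-16869505 (minus strand), and Vpreb3 is chr10:75948050-75948299 (plus strand).
Igll1: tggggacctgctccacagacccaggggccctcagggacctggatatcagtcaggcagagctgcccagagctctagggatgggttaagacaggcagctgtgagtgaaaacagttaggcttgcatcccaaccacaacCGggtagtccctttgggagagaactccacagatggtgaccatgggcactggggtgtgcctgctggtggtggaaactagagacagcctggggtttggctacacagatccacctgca
Vpreb1: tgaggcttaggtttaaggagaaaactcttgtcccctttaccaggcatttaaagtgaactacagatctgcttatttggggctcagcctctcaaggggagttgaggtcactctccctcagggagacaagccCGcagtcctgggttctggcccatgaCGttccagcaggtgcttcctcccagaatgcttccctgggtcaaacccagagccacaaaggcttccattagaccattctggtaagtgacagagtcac
Vpreb3: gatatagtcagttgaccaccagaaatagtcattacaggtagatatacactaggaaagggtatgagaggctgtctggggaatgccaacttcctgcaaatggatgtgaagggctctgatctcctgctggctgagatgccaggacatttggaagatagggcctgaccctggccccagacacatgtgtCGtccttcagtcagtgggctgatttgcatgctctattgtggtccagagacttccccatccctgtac

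Each of these stretches is poor in CpGs, with 1 in Igll1, 2 in Vpreb1 and 1 in Vpreb3, against a median of 6 in the same 250 bases of all RefSeq promoters. The single CpG of Igll1 was methylated in 0 of 25 reads in each B cell file, which allows up to 12%, and in 48.1% and 66.7% of reads in female and male T cells. The 2 CpGs of Vpreb1 stood at 4.88% and 2.70% in female and male B cells and at 84.0% and 88.7% in T cells. The CpG of Vpreb3 was methylated in 0 of 26 and 0 of 24 reads in B cells, which allows up to 11.5% and 12.5%, and in 72.7% and 68% of reads in T cells.

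**Figure D2:**
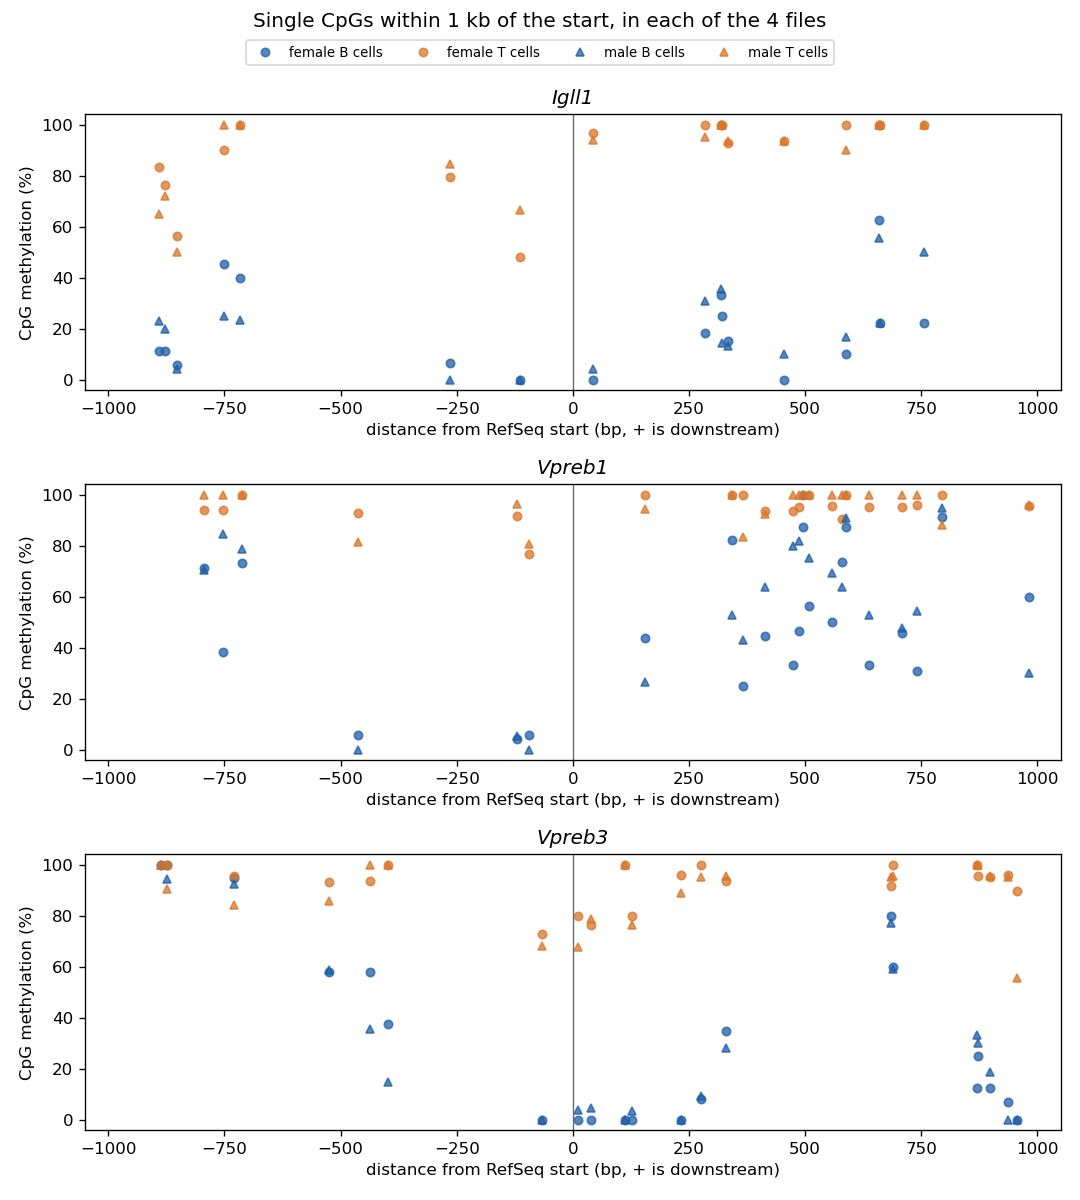
Methylation of single CpGs (percent) against the distance from the RefSeq start in bases, for Igll1, Vpreb1 and Vpreb3; circles are female and triangles male files, blue B and orange T cells, and the vertical line is the start. The T cell points stay high throughout, at 53.3% or more as means of both sexes, while the B cell points drop to 0 or near it around each start.

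Vpreb1 (chr16:16868403-16870843, minus strand) encodes the partner of λ5. The start given for it by GENCODE lies 1588 bases from the RefSeq start and 107 bases from that of Top3b, a broadly expressed topoisomerase gene, so the GENCODE promoter is largely that of Top3b. There methylation was 3.49% in female and 3.82% in male B cells, beside 6.47% and 4.15% in T cells (-1.65 points, adjusted p = 0.341). Around the RefSeq start, an alternative added after seeing the data, 22 CpGs stood at 49.1% (44.0% to 54.1%) and 54.0% (48.7% to 59.3%) in female and male B cells. In T cells they stood at 95.1% (92.6% to 96.8%) and 95.4% (92.8% to 97.0%). The difference of -43.7 points was called (adjusted p = 4.99e-06).

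In Vpreb1 the low CpGs lay upstream of the start rather than downstream. The 3 CpGs from 95 to 462 bases upstream were between 0% and 5.88% in the B cell files and between 76.9% and 96.3% in the T cell files. Downstream, the coding part was partly methylated in B cells: the window chr16:16868001-16869000 stood at 56.8% and 66.0% in female and male B cells and at 96.7% in both T cell files (-35.3 points, adjusted p = 3.27e-40). The window at the start (chr16:16869001-16870000) differed by -67.6 points and the window beyond the end of the gene (chr16:16867001-16868000) by -35.9 points. Under limma on log2 ratios the last of these was not called (adjusted p = 0.0513). Between Igll1 and Vpreb1, the window chr16:16866001-16867000 was under 50% in all 4 files.

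Vpreb3 lies on another chromosome (chr10:75943057-75949657, plus strand) and showed the same direction over a wider stretch. Around its RefSeq start, which is 5243 bases downstream of the GENCODE start and was likewise added after seeing the data, 21 CpGs stood at 30.8% (26.2% to 35.8%) in female and 30.5% (26.6% to 34.8%) in male B cells. In T cells they stood at 92.6% (89.9% to 94.6%) and 89.1% (86.0% to 91.6%), a difference of -60.2 points (adjusted p = 9.86e-07). Within 250 bases of that start, female B cells had 0 methylated of 116 reads, which allows up to 2.59%, and male B cells 1.97%, against 83.5% and 78.4% in T cells. At the GENCODE start the values were closer, with 57.6% and 58.1% in B cells and 69.8% and 66.9% in T cells (-10.6 points, adjusted p = 0.0804). With RefSeq starts, 3 of the 7 promoters were called, all lower in B cells, against 1.59% of 31941 promoters in either direction, 0.823% lower and 0.767% higher.

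Windows from its RefSeq start to beyond its end had little methylation in B cells, although the CpGs 684 and 689 bases after the start stood between 59.1% and 80% there. The windows chr10:75948001-75949000, chr10:75949001-75950000 and chr10:75950001-75951000 stood at 9.77%, 6.44% and 1.80% in female and at 17.0%, 4.31% and 1.34% in male B cells. In female T cells they stood at 88.5%, 81.4% and 54.0%, and in male T cells at 84.9%, 79.3% and 51.8%. The T cell level thus fell along the same stretch, and in the next window (chr10:75951001-75952000), the lowest of the locus, all 4 files were at 7.93% or less. The gap was widest over the middle window of these (-74.98 points, adjusted p = 4.39e-152).

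The other called windows of the Vpreb3 locus lay upstream, over neighboring genes. At Chchd10, a gene for a mitochondrial protein, the window chr10:75937001-75938000 stood at 15.7% and 16.5% in female and male B cells and at 90.1% and 86.6% in T cells (-72.2 points, adjusted p = 1.54e-118). It lay 10799 bases upstream of the RefSeq start of Vpreb3 and within 1 kb of the start of Mmp11. The windows chr10:75933001-75934000 and chr10:75939001-75940000 differed by -30.6 and -23.4 points. The second of these, at Gm867, was not called without the male B cell file (-16.6 points), with a minimum of 10 reads per CpG (-18.5 points) or under limma on log2 ratios (adjusted p = 0.156).

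**Figure D3:**
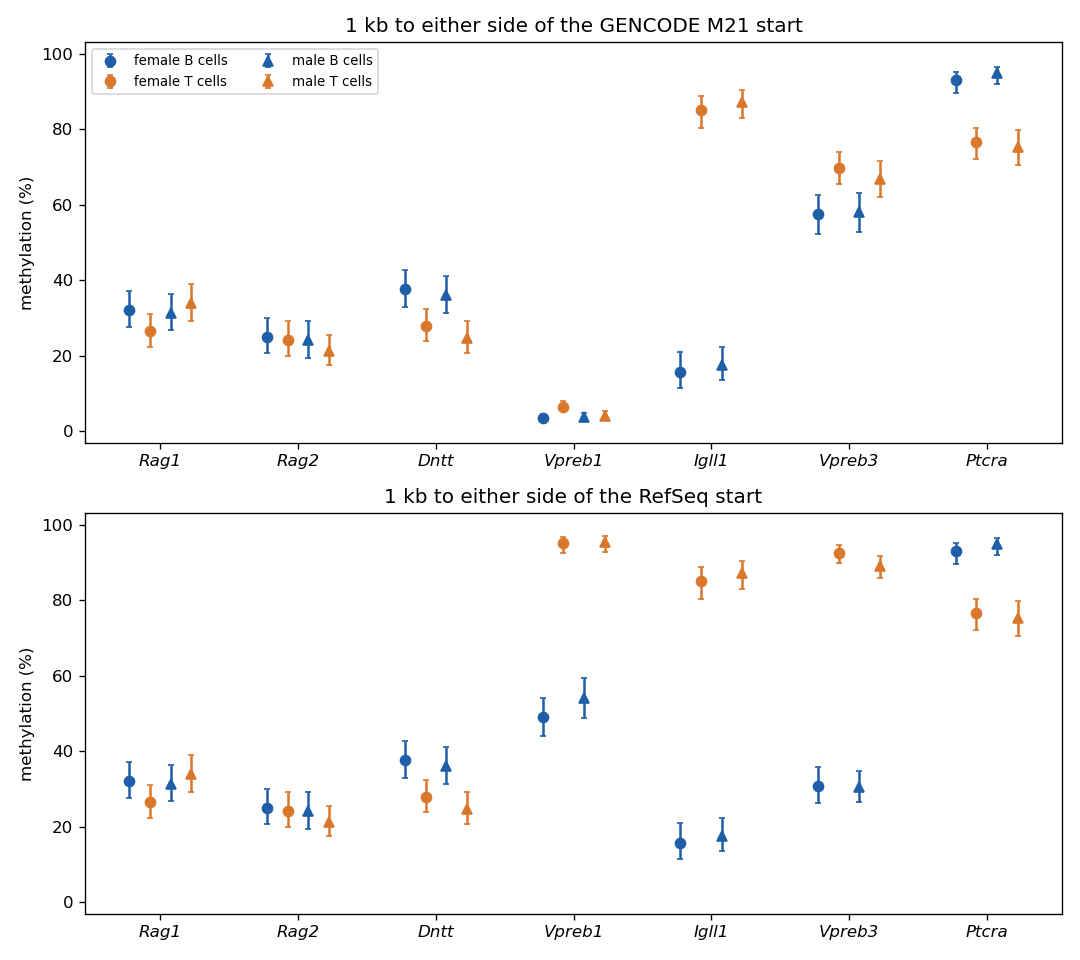
Methylation (percent) within 1 kb of the start of each gene in the 4 files, with 95% Wilson intervals as bars, at the GENCODE M21 starts (upper panel) and the RefSeq starts (lower panel); circles are female and triangles male files. Igll1 is far lower in B cells in both panels, Vpreb1 and Vpreb3 only at the RefSeq starts, and Ptcra is higher in B cells in both.

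Over whole loci, the surrogate light chain genes and Vpreb3 were again lower in B cells, and 1 of the 7 loci passed the test, against 0.375% of 21624 protein-coding loci. The Vpreb3 locus stood at 42.6% and 42.3% in female and male B cells and at 62.8% and 60.01% in T cells (-18.96 points, adjusted p = 0.0413). This call was lost without the female T cell file (-17.6 points) and without the male T cell file (-20.3 points), fits that called 3 and 0 of all 21624 loci against 81 otherwise. The Vpreb1 locus (45.1% and 47.7% in B cells, 63.0% and 63.3% in T cells) differed by -16.8 points with an adjusted p of 0.0551. The Igll1 locus (41.6% and 43.7% in B cells, 59.3% and 58.9% in T cells) differed by -16.4 points with an adjusted p of 0.0603. Both passed the test without the female B cell file (-15.5 and -15.4 points) and without the male B cell file (-18.1 and -17.5 points), where the lone B cell file is assumed to vary as the T cell files do. The size depended on the flanks. With 25 kb to either side the Vpreb3, Vpreb1 and Igll1 loci differed by -6.83, -10.2 and -10.4 points and were not called, and over the gene bodies alone by -32.3, -26.3 and -44.6 points and were called. The 2 loci share sequence and are not independent of each other.

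Ptcra (chr17:46755663-46763712, minus strand), the only member known for a role in T cell precursors alone, stood the other way round. Within 1 kb of its start, 22 CpGs stood at 92.9% (89.7% to 95.2%) and 94.8% (92.1% to 96.6%) in female and male B cells. In T cells they stood at 76.5% (72.2% to 80.3%) and 75.4% (70.5% to 79.7%). The B and T values did not overlap, as was also so at the GENCODE starts of Dntt, Vpreb1 and Vpreb3, none of which was called. With so few files a lack of overlap by itself means little. How often it occurred over all promoters was not counted. The adjusted p at Ptcra was 0.000724, but the difference of 17.9 points was under the 20 points asked for. It was 24.5 points with a minimum of 10 reads per CpG and 25.2 points within 500 bases of the start, and was called in both. As a mean of CpG levels it was 15.7 points, and with 1 file left out 17.0 to 18.8 points, all under the 20 points. Within 250 bases, T cells were near the middle of the scale: 4 CpGs stood at 43.6% and 54.3% in female and male T cells and at 82.9% and 95.1% in B cells. The lowest of these, 110 bases downstream of the start, stood at 4% and 28.6% in female and male T cells where B cells had 56.5% and 85%.

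The 5 called windows of the Ptcra locus ran from an intron of the gene to well upstream of it. The window of the start (chr17:46763001-46764000) stood at 88.6% and 94.5% in female and male B cells and at 70.1% and 70.2% in T cells (21.4 points). It fell to 18.4 points without the male B cell file and was then not called. The intron window (chr17:46760001-46761000) differed by 22.0 points and the window just upstream (chr17:46764001-46765000) by 29.0 points.

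Further upstream, within an intron of the overlapping gene model Gm26904, a pair of adjacent windows was partly methylated in T cells. The window chr17:46767001-46768000 stood at 71.4% and 82.4% in female and male B cells and at 38.5% and 37.2% in T cells (39.0 points, adjusted p = 6.41e-08). The window chr17:46768001-46769000 stood at 72.2% and 69.0% in B cells and at 35.8% and 35.2% in T cells (35.1 points, adjusted p = 1.55e-24). These lay 3789 and 4789 bases upstream of the start. Under limma on log2 ratios, only the window just upstream of the start remained called of the 5, with adjusted p of the others from 0.0672 to 0.103. The CD8 genes, which also mark another T cell subset, had less methylation in the same T cell files (above), and whether this and the Ptcra values share a source was not tested. The Ptcra locus as a whole differed by 4.90 points (60.5% and 58.8% in B cells, 54.6% and 54.9% in T cells, adjusted p = 0.195).

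A pair of stretches of Ptcra is shown, the first as the counterpart of those above and the second because it was low in T cells. The first is the 250 bases before the start (chr17:46763713-46763962, minus strand), and the second the 300 bases richest in CpGs within the far upstream windows (chr17:46767752-46768051, minus strand). CpGs are in capitals (GRCm38.p6).
Ptcra start: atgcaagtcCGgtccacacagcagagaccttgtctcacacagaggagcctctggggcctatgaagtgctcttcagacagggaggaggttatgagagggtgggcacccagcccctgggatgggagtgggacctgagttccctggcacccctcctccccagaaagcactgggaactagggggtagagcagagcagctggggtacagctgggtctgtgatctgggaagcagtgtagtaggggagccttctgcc
Ptcra far upstream: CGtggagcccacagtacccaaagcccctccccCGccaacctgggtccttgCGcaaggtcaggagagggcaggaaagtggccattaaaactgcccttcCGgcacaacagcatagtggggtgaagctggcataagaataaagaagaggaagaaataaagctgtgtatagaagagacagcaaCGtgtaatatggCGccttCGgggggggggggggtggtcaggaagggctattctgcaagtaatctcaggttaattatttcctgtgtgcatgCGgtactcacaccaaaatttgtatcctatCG

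The single CpG of the first stretch stood at 92.3% and 100% in female and male B cells and at 52.2% and 63.0% in T cells. The second holds 9 CpGs, of which 7 were measured. They stood at 53.4% and 69.3% in female and male B cells and at 22.7% and 23.8% in T cells.

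Rag1 (chr2:101638282-101649501, minus strand) and Rag2 (chr2:101624718-101632529, plus strand) lie side by side and are read toward each other. Within 250 bases of their starts, both mature cell types had little methylation. Within 1 kb of the Rag1 start, methylation was 32.2% in female and 31.4% in male B cells, beside 26.5% and 34.0% in T cells (1.55 points, adjusted p = 0.894). The T cell values lay on either side of the B cell values. Within 1 kb of the Rag2 start it was 25.1% and 24.1% in B cells and 24.2% and 21.3% in T cells (1.85 points, adjusted p = 0.855). Neither p shows that the levels were the same. Of the 19 CpGs around the Rag1 start, 8 were higher and 1 lower in B cells in both sexes. As means of both sexes, 4 of them were at or over 80% in B cells and 0 in T cells. Of the 24 CpGs around the Rag2 start, 4 were higher and 4 lower in B cells in both sexes. The higher ones lay 504 to 928 bases upstream and the lower ones 814 to 932 bases downstream. The CpG 791 bases upstream stood at 87.5% in both B cell files and at 14.3% and 8.33% in female and male T cells (7 to 16 reads per file). Within 250 bases of the RefSeq starts, Rag1 stood between 2.40% and 8.53% and Rag2 between 3.41% and 5.13% over the 4 files. The RefSeq start of Rag1 coincides with the GENCODE start of the overlapping transcript B230118H07Rik, which lies 31 bases from the GENCODE start of Rag1.

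The bases before both Rag starts are shown because they stayed low in B and T cells alike. Rag1 is chr2:101649533-101649782 (minus strand) and Rag2 is chr2:101624462-101624711 (plus strand), with CpGs in capitals (GRCm38.p6).
Rag1: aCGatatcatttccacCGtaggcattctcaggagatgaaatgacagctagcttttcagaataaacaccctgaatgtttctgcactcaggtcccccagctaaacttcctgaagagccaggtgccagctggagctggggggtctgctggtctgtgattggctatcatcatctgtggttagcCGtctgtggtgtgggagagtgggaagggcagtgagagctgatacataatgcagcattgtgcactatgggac
Rag2: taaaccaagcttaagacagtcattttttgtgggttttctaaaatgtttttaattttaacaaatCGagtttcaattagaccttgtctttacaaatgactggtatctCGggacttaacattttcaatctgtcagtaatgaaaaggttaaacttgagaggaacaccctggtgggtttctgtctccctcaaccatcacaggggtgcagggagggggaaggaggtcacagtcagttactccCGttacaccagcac

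The 3 CpGs of the Rag1 stretch stood at 2.6% and 2.82% in female and male B cells and at 1.23% and 6.49% in T cells. The 3 CpGs of the Rag2 stretch stood at 7.14% and 5.13% in B cells and at 6.25% and 10.5% in T cells. The lowest window of the Rag2 locus lay further away, 3211 bases upstream of its start (chr2:101621001-101622000), at 8.44% and 8.11% in female and male B cells and at 5.65% and 7.08% in T cells. Letter patterns bound by lymphoid factors were counted in the same 250 bases of all 7 members, on both strands. CANNTG (E-box) occurred in all 7 members and in 66.2% of 32619 RefSeq promoters. TGTGGT (Runx core) occurred in 3 members, Rag1, Vpreb3 and Igll1, and in 13.9% of promoters. CCCNNGGG (EBF1 core) occurred in Igll1 and Ptcra (11.9% of promoters), and TGGGAA (Ikaros core) in Rag1 and Ptcra (21.7%). AGATAA, a core known for zinc finger factors of the GATA family, occurred in Dntt (10.0%). The patterns were allowed to overlap each other, and a match of letters is no evidence of binding.

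Inside the Rag1 locus, 4 windows were called, 2 of them shared with Rag2. The widest difference was between the 3′ ends of the genes, in the window chr2:101637001-101638000, at 82.4% and 82.0% in female and male B cells and at 48.8% and 30.5% in T cells (42.5 points, adjusted p = 4.14e-11). The T cell low was narrow. A run of 4 CpGs over 199 bases stood at 83.7% and 80.3% in B cells, while none of 37 and 53 reads in female and male T cells was methylated, which allows up to 8.11% and 5.66%. The run was 12153 bases downstream of the Rag1 start.

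Within the coding exon of Rag1 the direction was opposite. The window chr2:101644001-101645000 stood at 73.3% and 73.2% in female and male B cells and at 96.6% and 95.8% in T cells (-23.0 points, adjusted p = 1.2e-37). The 8 CpGs of the window that were lower in B cells by 30 points or more, chosen for that difference, lay within 141 bases and stood at 19.4% and 19.2% in B cells and at 95.8% and 96.1% in T cells. The other CpGs of the window differed by -6.67 to 10 points. Upstream of the start, the window chr2:101651001-101652000 stood at 59.3% and 48.8% in B cells and at 89.4% and 92.8% in T cells (-37.1 points, adjusted p = 2.54e-08). Within Rag2, in sequence annotated as UTR, the window chr2:101628001-101629000 stood at 22.2% and 26.8% in B cells and at 48.6% and 40.8% in T cells (-20.2 points, adjusted p = 5.67e-13). The last difference shrank to -17.9 points once the female B cell file was left out and to -16.3 points once the female T cell file was, below the 20 points, and was not called by limma on log2 ratios (adjusted p = 0.323).

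The narrow stretches are shown because the difference of each window rests on them. The run between the genes is chr2:101637182-101637380 and the stretch in the Rag1 coding exon is chr2:101644056-101644196, both on the minus strand, with CpGs in capitals (GRCm38.p6).
Run between Rag1 and Rag2: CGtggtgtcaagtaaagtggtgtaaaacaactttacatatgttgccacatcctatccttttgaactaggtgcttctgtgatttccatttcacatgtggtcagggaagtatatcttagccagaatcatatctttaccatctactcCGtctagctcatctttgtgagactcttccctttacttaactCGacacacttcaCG
Rag1 coding exon: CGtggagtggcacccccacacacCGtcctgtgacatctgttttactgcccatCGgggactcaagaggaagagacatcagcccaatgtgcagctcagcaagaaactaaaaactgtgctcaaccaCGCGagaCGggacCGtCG

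As whole loci, Rag1 stood at 72.3% and 71.7% in female and male B cells and at 76.6% and 76.5% in T cells (-4.59 points, adjusted p = 0.196). The Rag2 locus stood at 67.6% and 67.3% in B cells and at 67.7% and 67.0% in T cells (0.11 points, adjusted p = 0.984).

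Dntt (chr19:41029275-41059525, plus strand) had the broadest low stretch that both cell types shared. Over chr19:41027001-41033000, which spans the start and part of an intron, each of 6 windows was under 50% in all 4 files. The lowest, chr19:41031001-41032000, stood at 6.52% and 10.7% in female and male B cells and at 4.23% and 8.72% in T cells. Within this stretch T cells were lower at 1 called window, chr19:41030001-41031000, with 32.8% and 30.4% in B cells and 2.38% and 9.09% in T cells (25.8 points, adjusted p = 9.62e-10). Within 1 kb of the start, Dntt stood at 37.8% and 36.1% in B cells and at 28.0% and 24.8% in T cells (10.6 points, adjusted p = 0.0616). Closer to the start it was not low: within 250 bases, 4 CpGs stood at 57.3% and 50% in female and male B cells and at 44.3% and 32.5% in T cells. Further downstream in the gene the order turned, with 61.7% and 66.0% in B cells and 85.2% and 89.1% in T cells at chr19:41034001-41035000 (-23.3 points, adjusted p = 9.72e-07). Both called windows were lost under limma on log2 ratios (adjusted p = 0.0560 and 0.113). The whole locus stood at 76.3% and 74.6% in B cells and at 75.04% and 75.2% in T cells (0.30 points, adjusted p = 0.931).

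**Figure D4:**
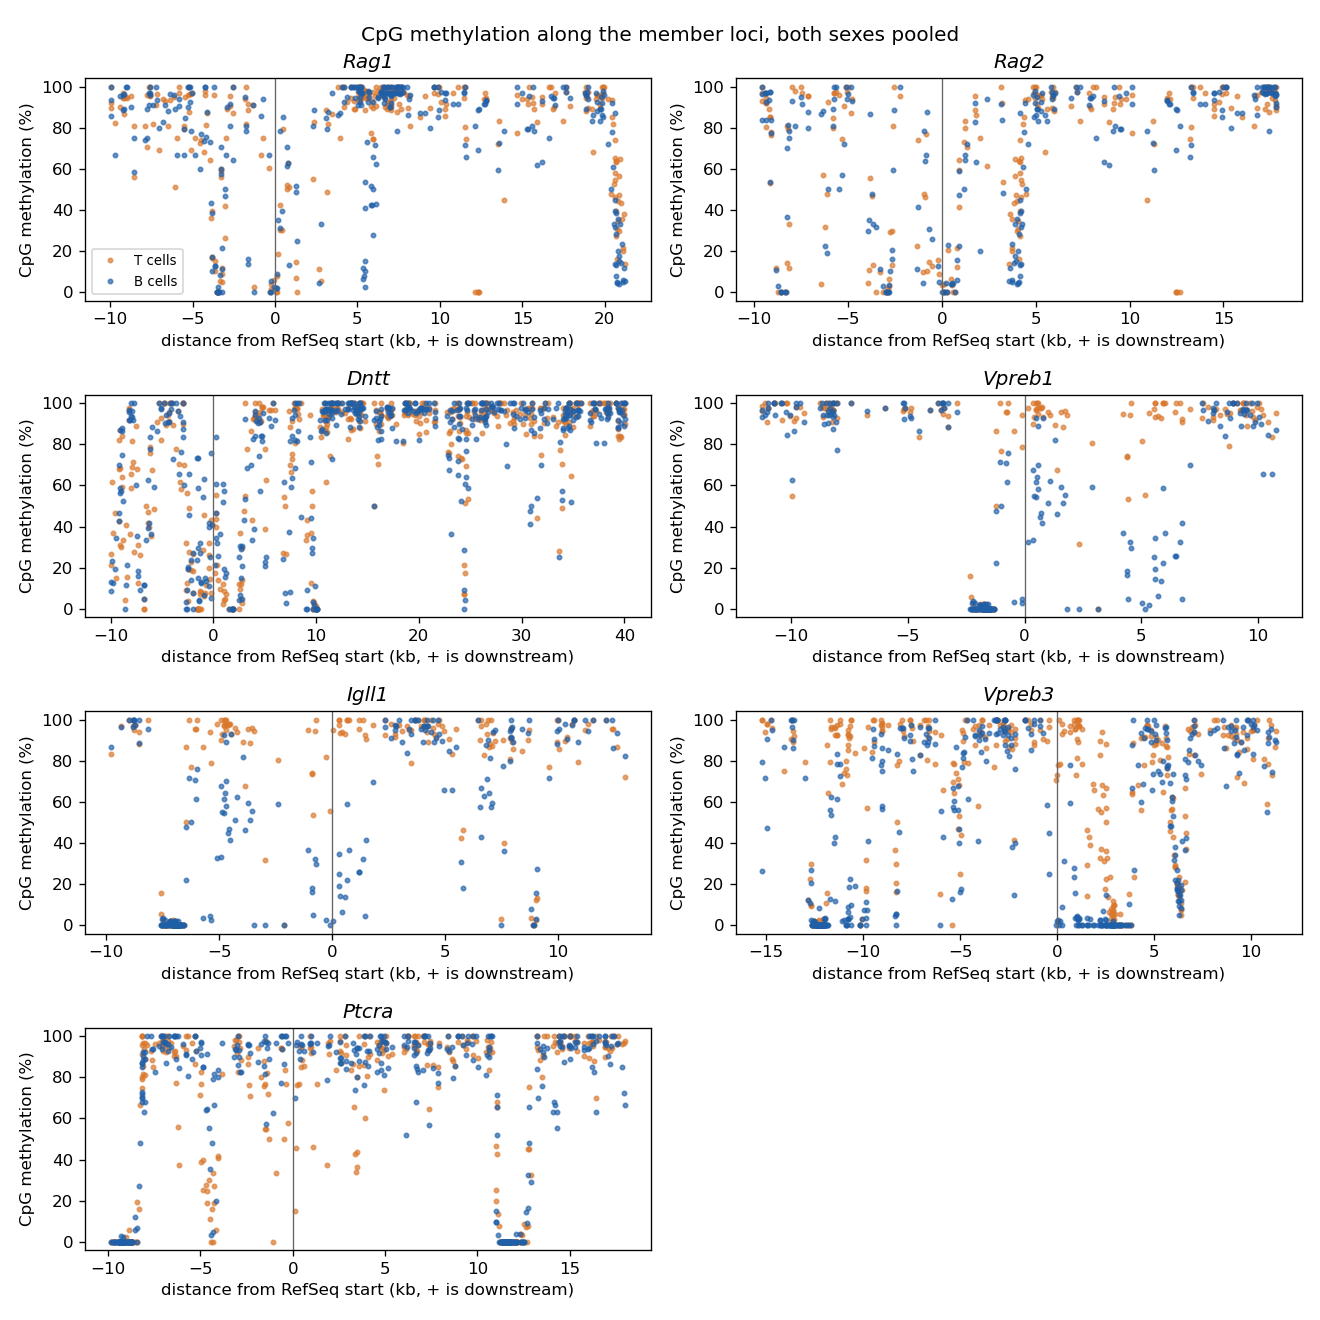
Methylation of each CpG (percent, both sexes pooled) along the 7 loci against the distance from the RefSeq start in kb; blue points are B and orange points T cells, and the vertical line is the start. Around the start, Vpreb3, Igll1 and the upstream side of Vpreb1 are low in B cells alone, Rag1 and Rag2 are low in both, Dntt has low CpGs of both cell types on either side of the start, and Ptcra is lower in T cells.

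Low windows shared by both cell types were common in these loci. Windows under 50% in all 4 files made up 27 of 176 (15.3%), against 3.18% of windows genome-wide, and 17 of the 27 had no start of a gene outside the group within 1 kb. Of these 17, 10 lay in the Dntt locus and 4 in the Rag2 locus. The genome-wide share covers windows far from genes as well as gene loci, and it was not repeated with this exclusion. A further 12 windows (6.82%, against 0.657% of all windows) were under 50% in both B cell files but not in both T cell files, and 7 (3.98%, against 0.75%) the other way round. The median difference over the 176 windows was -0.74 points, beside 0.049 over all windows, and the median level was 85.5%, beside 90.9%.

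The share of single CpGs at or under 20% varied between the loci. In the Vpreb3 locus it was 43.7% in B and 26.4% in T cells, in the Igll1 locus 39.0% and 31.8%, and in the Vpreb1 locus 36.7% and 29.4%. In the Ptcra locus it was 33.1% and 34.2%, in the Rag2 locus 19.8% and 19%, in the Rag1 locus 14.2% and 11.01% and in the Dntt locus 11.8% and 13.2%. Over all CpGs it was 9.86% and 9.87%. Part of the low CpGs of the Vpreb1, Igll1 and Ptcra loci belong to the starts of Top3b and 2310039H08Rik, where the lowest windows stood at 1.15% or less in every file. In the Vpreb3 locus, 3 of the 4 windows under 50% in all files lay within 1 kb of the start of a gene outside the group.

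Differences of 50 points or more also came in runs. There were 7 runs of at least 4 neighboring CpGs with such a difference in 1 direction, 6 of them lower in B cells, and they held 67 of the 2076 CpGs (3.23%), against 0.349% of all CpGs. Those lower in B cells lay at the starts of Igll1 (11 CpGs), Vpreb3 (9 CpGs) and Vpreb1 (4 CpGs), within Igll1 (6 CpGs) and Vpreb3 (17 CpGs), and at Chchd10 (16 CpGs). The run higher in B cells was that between Rag1 and Rag2. Over all CpGs there were 10936 such runs, 4455 of them lower and 6481 higher in B cells.

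**Figure D5:**
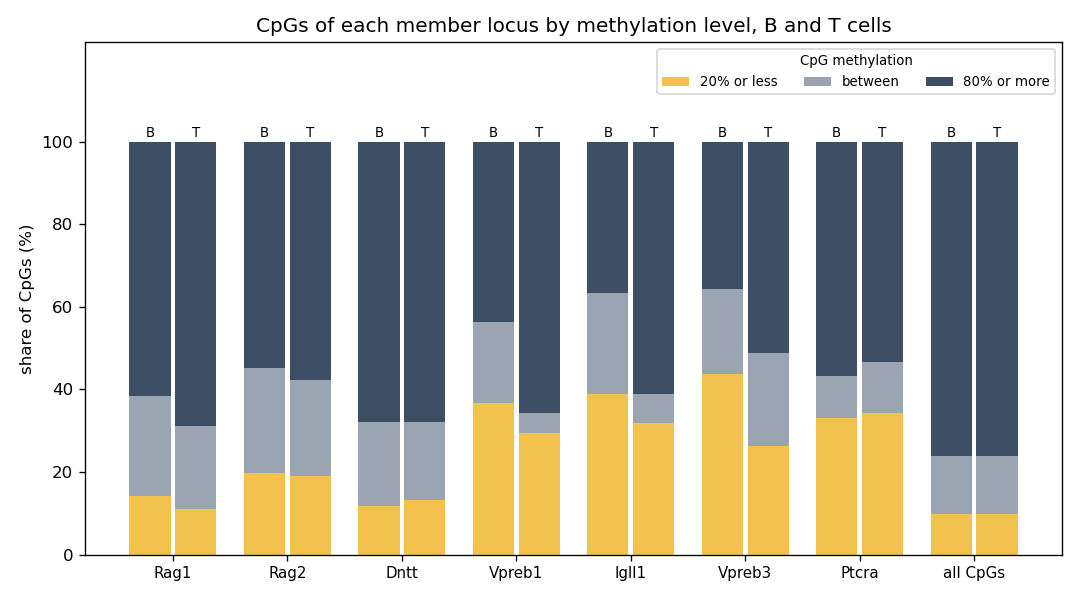
Share of CpGs (percent) with a methylation of 20% or less, between, and 80% or more in B and T cells, for each locus and for all CpGs measured. The share of low CpGs is larger in B than in T cells for Vpreb1, Igll1 and Vpreb3 and about the same for all CpGs, at 9.86% and 9.87%.

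Between females and males no window of the 7 loci was called, against 0.00103% of 1950708 autosomal windows (20 windows). Of the 176 windows, 12 (6.82%) had an unadjusted p under 0.05, against 4.73% of autosomal windows, and 0 were called by limma on log2 ratios or Fisher's exact test, which called 0 and 11 of all autosomal windows. The smallest adjusted p was 0.0389, at the window chr10:75936001-75937000 near Mmp11 and Chchd10, where female minus male was -13.4 points on average, under the 20 points asked for.

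Other genes of the pathway were compared by their promoters. Of 9 genes listed under end joining, 0 were called, with 1 at an unadjusted p under 0.05, and their differences lay between -1.92 and 1.05 points. The label fits Hmgb1 and Hmgb2 only loosely, and Hmgb1 had the lowest adjusted p of the list (0.0587, logistic fit). Of 11 genes of lymphoid progenitors (such as Flt3, Kit and Il7r), 0 were called, with 3 at an unadjusted p under 0.05 and differences between -8.62 and 13.0 points. Of these only Cd93, a surface marker of early B lineage cells, had an adjusted p under 0.05, at 5.09% and 3.99% in B cells of females and males, beside 13.9% and 12.4% in T cells (adjusted p = 0.0017). Of 12 regulators of these genes and lineages, 0 were called, with 7 at an unadjusted p under 0.05 and differences between -15.3 and 10.7 points. Limma on log2 ratios and Fisher's exact test likewise called 0 in each list. The logistic fit called 1.59% of all promoters. Median levels in B and T cells were 6.75% and 8.31% for end joining and 3.53% and 4.90% for progenitor genes. For the regulators they were 4.24% and 4.44%, beside 82.6% and 82.4% over all promoters. Such low levels leave little room for 1 cell type to lie 20 points below the other, so the counts of 0 carry little weight. Over all promoters 15.5% had an unadjusted p under 0.05. The 7 regulators also had an adjusted p under 0.05, as had 5.43% of all promoters, and 2 of them, chosen after their values were seen, were Pax5 and Tcf7. Pax5, a factor that holds B cell identity, stood at 4.44% and 5.24% in female and male B cells and at 19.6% and 20.6% in T cells (adjusted p = 3.35e-05). Tcf7, an early T lineage factor, stood at 10.6% and 11.8% in B cells and at 0.46% and 0.50% in T cells (adjusted p = 6.21e-07). The median promoter difference was 1.55 points over the 7 members and 0.11 over all promoters.

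Promoters with 4 values most like those of Igll1 were sought among 44587 promoters with at least 100 reads in every file, by the smallest largest difference over the 4 files. The closest was Gm45745 (B cells 17.2% and 13.5%, T cells 86.5% and 83.3% in females and males, at most 3.93 points away). It was followed by Fcrla, a B cell gene of the Fc receptor-like family (at most 6.58 points away).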

How the data were processed

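WGBS of 8 samples (4 groups of 2) was analyzed from 4 files, 1 per group. The labels leave unsaid if both samples of a group were put together in its file. For each CpG the files deposited by the authors give the methylated fraction and, as a count, the reads behind it (5 or more, strands merged). The submitters' processing notes name Trim Galore, FastQC, Bismark 0.13.1 and mm10. The files were treated as plain bisulfite libraries, as their names say, although per the labels some of each sample was oxidized. Conversion rates and duplicate removal are not given in the sources used here.

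Positions in the files count from 0 and were raised by 1, after which all CpGs of the 5 chromosomes used lay on a CG of the GRCm38.p6 reference. Methylated reads were recovered as fraction times coverage, rounded to whole reads, with a tolerance of 0.00101 in the fraction. CpGs with 5 or more reads in all files were summed over 1 kb windows, promoters (1 kb to either side of a start), gene bodies with 10 kb flanks (each with 3 or more CpGs), and tested genome-wide by quasi-binomial logistic regression on cell type and sex, leaving 1 residual degree of freedom. Dispersions were moderated with limma 3.58.1 in R 4.3.3. For windows the moderated dispersion was 1.31 throughout, so these p-values rest on an average spread, and very small ones overstate certainty. Sums and intervals were computed with Python 3.11.15, numpy 2.4.6 and scipy 1.17.1. Wilson intervals and limits for 0 reads (3 reads over the total) cover counting error only.

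The genes, lists and tests were chosen with earlier results of these data known. Named were every called window of the loci, the windows with the lowest level and the widest difference, at most 2 called genes per list and direction, Pax5, Tcf7, Lyz2 and Cd93 (not called, chosen after their values were seen), and the 3 promoters closest to a called one, of which 1 is not reported here. The model was tested on simulated data. Alternatives were other thresholds, window sizes, coverage minimums, flanks and tests, each file left out, and, added after seeing the data, RefSeq starts.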

Additional observations from a re-analysis of the deposited data

Results flagged for a closer look

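The B minus T differences at the Rag1 promoter, the Rag2 locus and the Dntt locus had opposite signs in females and in males, and the difference between the sexes was not tested. At the Rag1 promoter B cells were 5.73 points above T cells in females and -2.64 points in males, with both annotations of the start. Over the Rag2 locus the difference was -0.0777 points in females and 0.29 in males, and over the Dntt locus 1.29 and -0.69 points. The other promoters and loci of the group had the same sign in both sexes.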

How the results depend on the processing

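Of the 24 called windows, all 24 kept their direction in every alternative that kept the windows, those with 1 file left out included. Under limma on log2 ratios 15 stayed called (1.02% of all windows called). A change of the test alone could not alter the direction, and these windows had been selected for a difference of 20 points or more. The count of called windows was 42 at a threshold of 10 points, 15 at 30 points, 45 of 282 windows of 500 bp and 11 of 94 windows of 2 kb, where 4.19%, 1.04%, 2.74% and 1.4% of all windows were called. Called promoters numbered 2 rather than 1 at 10 points, with a minimum of 10 reads and within 500 bp (3.48%, 1.81% and 2.16% of all promoters), and 3 at RefSeq starts (1.59%). Called loci numbered 0 at 20 points and with 25 kb flanks (0.0925% and 0.258% of all loci), 3 under limma, Fisher's exact test, a model with cell type as the only term, a minimum of 10 reads and gene bodies alone (0.615% to 1.09% of all loci), and 0 to 3 with 1 file left out. Without the female or the male T cell file the count was 0, and 3 and 0 of all loci were called. No window was called between the sexes under any of the 14 alternatives. Of all autosomal windows at most 0.0113% were called under any of them, so 0 among so few windows says little. Limma on log2 ratios and the model with sex as the only term called 0 of 1950708 windows.

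Of 63 alternative values at the 7 promoters, 57 kept direction and call, and of 63 at the loci, 42 did. Some of these repeat the main value. Leaving out CpGs over 100 reads changed no promoter or locus. The RefSeq start gave the same value at Rag1, Rag2, Dntt, Igll1 and Ptcra. Reversed were values near 0. The Rag1 promoter ranged from -2.21 to 5.30 points with 1 file left out, and the Rag2 promoter was -0.44 within 500 bp. The Rag2 locus was -0.28 with a minimum of 10 reads, -5.70 over the gene body, -2.92 with 25 kb flanks, -1.09 as a mean of CpG levels and -0.25 to 0.46 with 1 file left out. The Dntt locus was -0.50 over the gene body, -1.74 with 25 kb flanks, -0.15 as a mean of CpG levels and -0.58 to 1.18 with 1 file left out. The cause was not tested. Fits with 1 file left out had the tested term alone and 1 residual degree of freedom, from the group that kept both files. No paired analysis was possible because the groups share no replicate numbers, and B and T cells were matched only by sex, which is a term of the model. Depth limits single CpGs, which had as few as 5 reads.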
